A study of Homo sapiens with 13 samples.

Results

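Of the 1581 genomic intervals that the authors listed as enriched for compound 4 at 400 nM, 715 (45.2%, exact 95% binomial interval 42.8 to 47.7%) shared no base with any of the 3074 intervals of the other compound 4 list. These 715 peaks, called the 400 nM-only peaks here, were chosen by the presence and absence of peaks in the deposited lists. Their number and their absence from the other list are therefore a description and not a finding. The other list carries the compound's name and no dose, and is called the undosed list. The libraries behind it are not stated, so the 400 nM-only peaks are absent from a list and not from a known lower dose. The remaining 866 peaks of the 400 nM list overlapped an undosed peak by at least 1 bp and are called shared.

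The study applied COSMIC-seq to H1, a widely used line of human embryonic stem cells. Compound 4 was given for 24 h at 20 nM (2 libraries) and at 400 nM (2 libraries), and compound 2 was given in the same 4-library scheme. Compounds 5 and 6 (400 nM for 24 h, 2 libraries each) and 1 input library have no list and were not analysed here. Both 400 nM lists were deposited as 1 list per group, so no value below has a replicate error and no test between conditions was possible. Read depth is unknown from these files. Intervals given with shares are exact 95% binomial intervals over peaks, which are not independent replicates, and they cover counting error only. Shares are compared by whether these intervals overlap, with no test.

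Polyamides are chains of N-methylpyrrole and N-methylimidazole rings that lie in the minor groove of DNA and read its base pairs through the order of the rings. Compound 4 is a linear chain in which beta-alanine units separate the rings, whereas compound 2 folds into a hairpin. Both carry psoralen, which bonds covalently to DNA under ultraviolet light, and biotin, by which the bonded fragments are captured. A peak in such a list marks a place where captured fragments piled up, and the score attached to it is the authors' own value on a scale that was not given. It was used here only to rank peaks inside the 400 nM compound 4 list. No sequence is shown and no gene is named at these sites, because the peaks are on the build hg19 and no genome or annotation of that build was used here.

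The 400 nM-only peaks came from the lower part of the 400 nM list. Their scores ran from 24.4 through a median of 27.1 to 79.9, and those of the shared peaks from 24.4 through 45.3 to 255. The best of them ranked 187 of 1581, so the 186 peaks above it were all shared. In all, 147 of the 400 nM-only peaks lay in the upper 50% of the list and 568 in the lower 50%, where 223 peaks were shared. These values come from the calls that chose the members and support nothing further.

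The list was divided by score into 10 parts of equal size. The number of 400 nM-only peaks was 0 of 159 in the first part, 3 of 158 in the next and 18 of 158 in the one after. Further down it was 50 and 76, then 96, 111, 107 and 119, and in the last of the 10 parts 135 of 158 (85.4%). The share was therefore not the same over the list, and its largest steps lay between ranks 318 and 949. All 715 had the list's fixed width of 604 bp. Of the shared peaks 847 had that width, and 19 were of another width, the narrowest of 151 bp. Those 19 all ranked 82 or better, above every 400 nM-only peak.

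**Figure D1:**
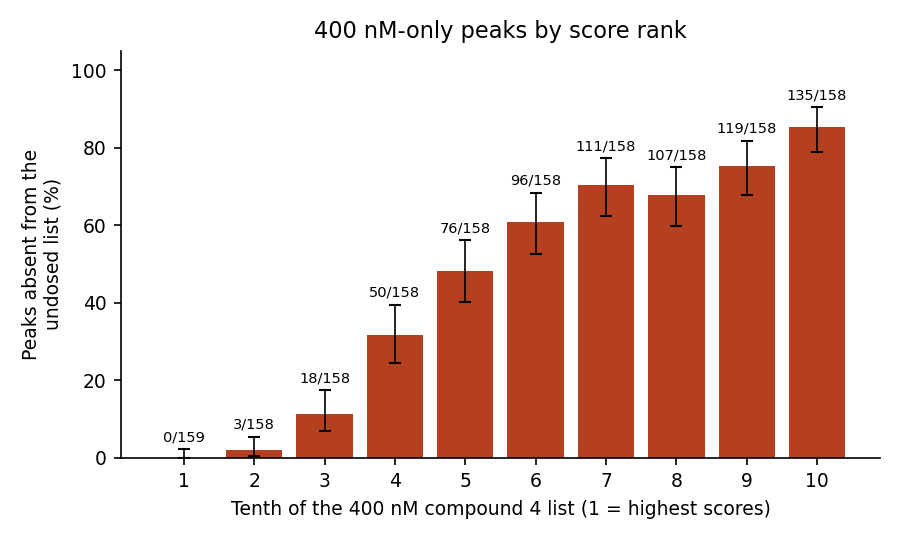
Share of peaks absent from the undosed compound 4 list (y axis, percent) in each of 10 equal parts of the 400 nM compound 4 list, ordered from high to low score (x axis). Bars are shares with exact 95% binomial intervals and the counts above them; the share is 0 in the first part and 85.4% in the last.

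The 10 highest-scoring 400 nM-only peaks lay on 9 chromosomes. The highest was at 19p13.3 (chromosome 19, 5463121 to 5463724), with a score of 79.9 at rank 187, and the nearest undosed compound 4 peak was 1424 kb away. The next was at 12q22 (chromosome 12, 95320281 to 95320884), with a score of 68.9 at rank 242 and an undosed peak at 55.5 kb. After it came 2q22.2 (chromosome 2, 143312704 to 143313307), with a score of 60.1 at rank 310 and an undosed peak at 193 kb. These 3 were the only members among the first 317 peaks of the list.

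The peak at 7q11.23 (chromosome 7, 72316432 to 72317035) ranked 351 with a score of 54.5, and that at 1p32.3 (chromosome 1, 55541015 to 55541618) ranked 353 with a score of 54.0. Below them came 1p34.2 (chromosome 1, 40790803 to 40791406; rank 381), 3p21.31 (chromosome 3, 46847733 to 46848336; rank 401) and 8q21.13 (chromosome 8, 83085541 to 83086144; rank 409). The last of the 10 were 22q13.1 (chromosome 22, 40481584 to 40482187; rank 422) and 10q22.1 (chromosome 10, 74463338 to 74463941; rank 423). Distances from these 10 to the nearest undosed compound 4 peak ran from 55.5 kb at 12q22 to 3164 kb at 10q22.1. None of the 10 lay within 10 kb of an undosed compound 4 peak.

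Few members owed their place to a narrow miss. The smallest gaps to an undosed peak were 553 bp and 627 bp, for an overlapping pair at 15q22.31 (chromosome 15, 65245300 to 65245903 and 65245635 to 65246238; ranks 797 and 1068). The next was 890 bp, at 7q34 (chromosome 7, 138380878 to 138381481; rank 1489). On the other side of the rule, the shared peaks with the smallest overlaps had 90 bp at 17q22 (chromosome 17, 54774252 to 54774855), 94 bp at 1p36.13 (chromosome 1, 16463285 to 16463888) and 121 bp at 7q21.11 (chromosome 7, 85795396 to 85795999). No 400 nM peak thus lay between a gap of 553 bp and an overlap of 90 bp.

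The 15q22.31 pair sat between undosed peaks on either side (65244177 to 65244746, rank 850, and 65246866 to 65247435, rank 1120 in the undosed list). Both of those overlapped 400 nM peaks, so the pair lay inside a stretch that compound 4 marked in both lists. It was the only place where 400 nM-only peaks came within 1 kb of a shared 400 nM peak, with gaps of 541 and 322 bp. No 400 nM-only peak overlapped a shared one.

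The rest lay far from the undosed list. The median distance to the nearest undosed compound 4 peak was 351 kb, with 25% of members below 135 kb and 25% above 711 kb. Within 1 kb there were 3 of 715 (0.420%, 0.0866 to 1.22%), within 10 kb 19 (2.66%, 1.61 to 4.12%), within 100 kb 150 (21.0%, 18.1 to 24.1%) and within 1 Mb 602 (84.2%, 81.3 to 86.8%). Members in the upper and lower 50% of the 400 nM list had overlapping intervals for the share within 100 kb, at 28 of 147 (19.05%, 13.1 to 26.3%) and 122 of 568 (21.5%, 18.2 to 25.1%). The largest distances were 3816 and 3790 kb, for peaks at 15q11.1 (chromosome 15, 20000745 to 20001348 and 20026157 to 20026760), followed by 3616 kb at 10q22.2 (chromosome 10, 75817349 to 75817952).

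Peaks of the other compound lay about as near. The 805 peaks found for compound 2 at 400 nM and not in its undosed list had a median distance of 347 kb to the undosed compound 4 list, and 153 (19.01%, 16.4 to 21.9%) were within 100 kb of it. The quartiles were 150 and 939 kb. Within 10 kb there were 32 of these compound 2 peaks (3.98%, 2.74 to 5.57%), 9 of them overlapping an undosed compound 4 peak, which the rule forbids for the members. Intervals for the shares within 10 kb and within 100 kb overlapped between the compounds. Within 1 Mb the share was lower for compound 2 (76.8%, 73.7 to 79.7%) than for the members, and the intervals did not overlap. The compound 2 peaks included 114 on chromosome 10, and the part of this crowding in the difference was not tested. 

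**Figure D2:**
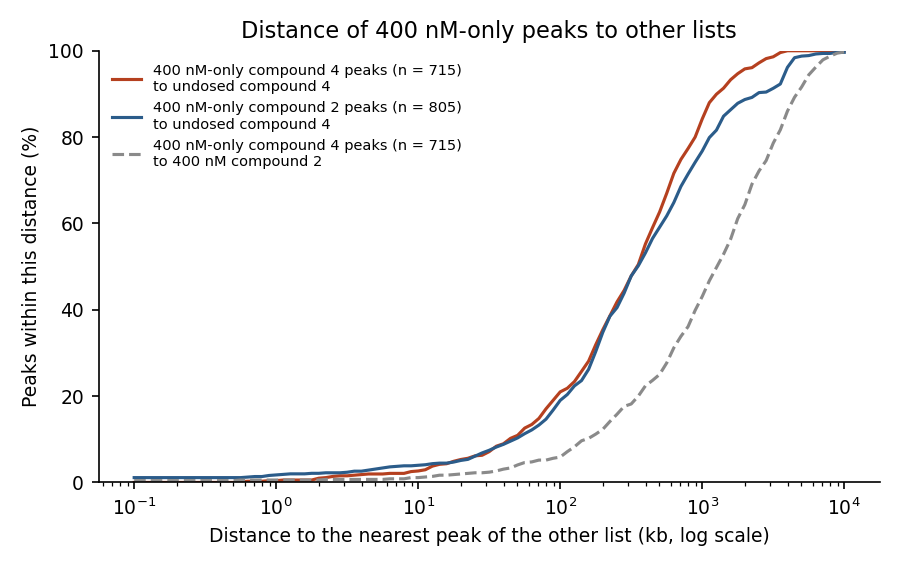
Cumulative share of peaks (y axis, percent) within a given distance (x axis, kb, log scale) of the nearest peak of another list. The curve of 400 nM-only compound 4 peaks to the undosed compound 4 list, with a median of 351 kb, runs beside that of 400 nM-only compound 2 peaks (347 kb) and lies above it at 1 Mb (84.2% against 76.8%); the dashed curve of the members to the shorter 400 nM compound 2 list lies lower at each distance from 10 kb to 1 Mb.

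The members' median distance to a shared 400 nM compound 4 peak was 1284 kb, and 38 of 715 (5.31%, 3.79 to 7.22%) had one within 100 kb. Their median distance to a 400 nM compound 2 peak was 1264 kb, with 42 (5.87%, 4.27 to 7.86%) within 100 kb. The shared compound 4 peaks had a median of 1304 kb to the same compound 2 list, with 57 of 866 (6.58%, 5.02 to 8.44%) within 100 kb. The intervals of members and shared peaks for the share within 100 kb of this compound 2 list overlapped. The lists differ in length, and distances to a longer list are shorter, so distances to different lists are given without a comparison.

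Only 3 of 715 members overlapped a peak of the 400 nM compound 2 list, against 0.190% of all 400 nM compound 4 peaks. They are the same 3 peaks, since no shared compound 4 peak overlapped a 400 nM compound 2 peak (0 of 866, where the limit of 3 counts behind a count of 0 is a share of 0.346%). At 2p23.3 (chromosome 2, 24548514 to 24549117; rank 1275) the overlap was 576 bp, and at 6q16.3 (chromosome 6, 102344621 to 102345224; rank 1456) it was 569 bp, nearly the whole of both peaks. At 1q21.1 (chromosome 1, 145084147 to 145084750; rank 621) it was 253 bp. This 1q21.1 peak also lay 1.85 kb from an undosed compound 2 peak and 4.04 kb from an undosed compound 4 peak, so all 4 lists had a peak within a few kb there. At the other end, the member at 13q21.1 (chromosome 13, 57167972 to 57168575, rank 1563) missed a 400 nM compound 2 peak by 0.513 kb. No member overlapped an undosed compound 2 peak, and 1 of 866 shared compound 4 peaks did.

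The group on chromosome 19 was the densest stretch of members. Band 19q11, the centromeric band of the long arm (26500001 to 28600000), held 14 of them, or 6.67 per Mb, between 27799355 and 27888757. The span was 89.4 kb, of which the peaks covered 9.46%. No shared compound 4 peak lay in the band, and the undosed compound 4 list and both compound 2 lists had 0 peaks there. The nearest undosed compound 4 peak, at 19q12 (28772206 to 28772775, rank 2057 in its list), was 883 to 972 kb from the members. Compound 2 peaks were at least 3.76 Mb (400 nM) and 4.34 Mb (undosed) away, and the nearest other member on chromosome 19 was 2029 kb away. The group is named in the rule that defines the members, and its presence is not a finding.

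Scores in the group ran from 25.7 through a median of 27.6 to 45.8, and ranks from 440 to 1312. The strongest peak lay at 27855434 to 27856037 (score 45.8, rank 440), and a second of nearly the same score at 27888154 to 27888757 (45.1, rank 455), at the far end of the group. Between 34.5 and 34.6 were the peaks at 27799355 to 27799958 (rank 669), 27856900 to 27857503 (rank 670) and 27884651 to 27885254 (rank 673). These 5 were the group's members in the upper 50% of the list, and they stood at both ends and in the middle. The peak at 27875379 to 27875982 (31.6, rank 796) came next.

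The other 8 peaks of the group scored under 28. They were at 27836627 to 27837230 (28.0, rank 1048), 27844812 to 27845415 (27.2, rank 1107), 27848441 to 27849044 (26.8, rank 1160) and 27869400 to 27870003 (26.6, rank 1173). The weakest were at 27851083 to 27851686 (26.3, rank 1217), 27813506 to 27814109 (25.8, rank 1300), 27846019 to 27846622 (25.7, rank 1310) and 27823779 to 27824382 (25.7, rank 1312). Neighbours were separated by 603 to 13547 bp, with a median gap of 5375 bp, and no 2 peaks overlapped. Of the 13 gaps, 2 were under 1 kb and 6 under 5 kb, so chaining within 1 kb left 12 separate loci. The group was thus a string of separate peaks and not 1 broad pile of overlapping ones.

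**Figure D3:**
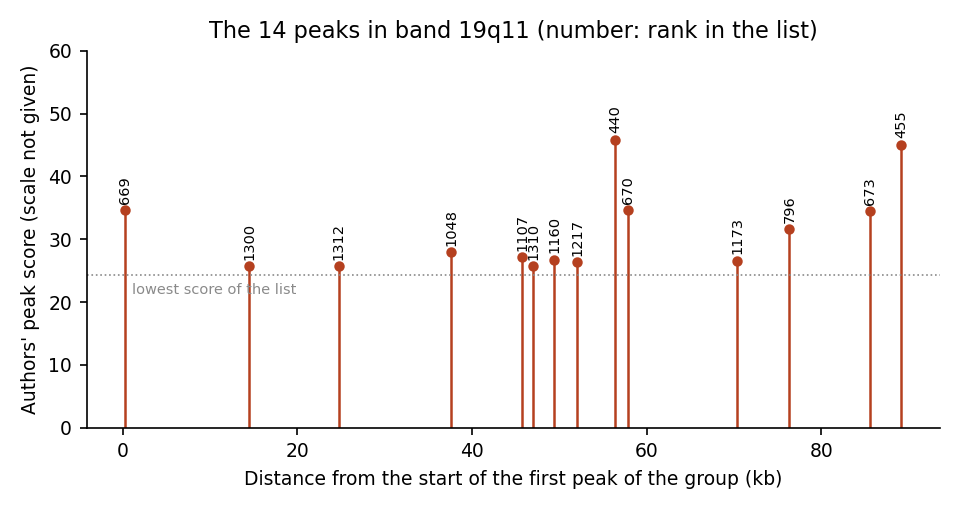
The 14 peaks of band 19q11 by distance from the start of the first peak (x axis, kb) and the authors' peak score (y axis, scale not given), with each peak's rank in the 400 nM compound 4 list above it and the list's lowest score as a dotted line. The strongest peaks, at ranks 440 and 455, stand near the middle and at the far end of an 89.4 kb span.

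Most members stood alone. Chained within 1 kb the 715 made 680 loci, of which 645 held 1 member and 35 held 2, and none held more. In all 70 of 715 members (9.79%, 7.71 to 12.2%) were in a locus with another member, and outside 19q11 66 of 701 (9.42%, 7.36 to 11.8%). Over all 400 nM compound 4 peaks 24.2% had such a neighbour, over the shared peaks 313 of 866 (36.1%, 32.9 to 39.4%) and over undosed-only peaks 187 of 2192 (8.53%, 7.39 to 9.78%). In the lower 50% of the 400 nM list the shares were 50 of 568 for members (8.80%, 6.60 to 11.4%) and 51 of 223 for shared peaks (22.9%, 17.5 to 28.9%). The members' share was thus below that of shared peaks in the same part of the list, by intervals that did not overlap. The neighbour could lie in the upper 50%, as at 1p32.3 (ranks 353 and 1487), so neighbours were not matched for rank. Whether the overlap rule itself adds to this difference was not tested.

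In 32 of the 35 loci the 2 peaks overlapped, with starts 199 to 419 bp apart and a median of 224 bp. The locus with the best-ranked peak was at 1p32.3 (chromosome 1, 55541015 to 55541819), where ranks 353 and 1487 were 201 bp apart. At 7q32.1 (chromosome 7, 127566496 to 127567309) ranks 456 and 786 were 210 bp apart. At 14q32.11 (chromosome 14, 91702927 to 91703729) ranks 527 and 980 were 199 bp apart, and at 14q21.3 (chromosome 14, 48240078 to 48241100) ranks 545 and 977 were 419 bp apart. Such pairs cover 1 place with 2 windows, and merging them left 683 regions. The 3 pairs without overlap were 2 in 19q11, one of them (chromosome 19, 27855434 to 27857503) second in best rank among the 35, and 1 at 16p11.2 (chromosome 16, 33992492 to 33994513).

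By members per Mb the bands after 19q11 were 15q15.2 (2 members, 2.50 per Mb), 14q22.2 (3, 2.14 per Mb), 7q32.1 (4, 1.90 per Mb) and 16p12.2 (5, 1.67 per Mb, a value shared with 3 other bands of lower rank). The 15q15.2 members lay close to each other (chromosome 15, 43149972 to 43150575 and 43152414 to 43153017; ranks 1226 and 1014). At 14q22.2 an overlapping pair (chromosome 14, 55421173 to 55422033) had another member at 55469212 to 55469815. At 16p12.2 an overlapping pair (chromosome 16, 21582016 to 21582878) had another member at 21592034 to 21592637, and the other two lay over 2 Mb away at 23744321 and 24123555. These densities rest on a handful of peaks per band. None came near the 14 members of 19q11.

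Members were found in 396 of 862 bands, and in 30 of these the undosed compound 4 list had no peak. Those 30 bands held 55 members. After 19q11 they were led by 3p22.2 (4 members), 22q13.1, 10q22.2 and 14q22.2 (3 each) and 7q11.1, 11p11.12 and 15q11.1 (2 each). The 22q13.1 band included the member ranked 422. The remaining 660 members lay in bands where the undosed list also had peaks. A shared peak must overlap an undosed peak, so a band without undosed peaks can hold a shared peak only at its edge. That the 30 bands held members and no shared peaks thus follows from the rule and is not a finding. How many bands without undosed peaks held no member was not counted, so the 30 bands are given as a description only.

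Centromeric bands held 28 of 715 members (3.92%, 2.62 to 5.61%), 3 of 866 shared peaks (0.346%, 0.0715 to 1.01%) and 7 of 2192 undosed-only peaks (0.319%, 0.129 to 0.657%). They held 1.96% of the whole 400 nM list and make up 3.39% of the hg19 length. Of the members there, 14 are the 19q11 group, and without it the share was 14 of 701 (2.00%, 1.10 to 3.33%). That interval missed the interval of the shared peaks, none of which lay in 19q11, only narrowly (1.10% against 1.01%). Overlapping pairs at 8p11.1 and 7q11.1 count as 2 peaks each in it, and it was not computed with pairs merged. Merged within 1 kb and with 19q11 kept, 24 of 680 members (3.53%, 2.27 to 5.21%) were in centromeric bands. The whole-list share still includes the group. In the lower 50% of the list the shares were 3.35% of members (2.03 to 5.17%) and 0.448% of shared peaks (0.0113 to 2.47%), with overlapping intervals. Of the 14 outside 19q11, 4 were at 8p11.1 (chromosome 8, 43772321 to 43781490; ranks 594 to 1057), 2 at 7q11.1 (chromosome 7, 61540992 to 61541875; ranks 734 and 764) and 2 at 15q11.1. The others were single peaks at 19p11 (chromosome 19, 24583782 to 24584385; rank 552), 4p11, 20p11.1, 3p11.1, 5p11 and Xq11.1. Centromeric bands of the build hold unsequenced stretches and repeats, and how repeated reads were mapped is not given in the sources used here, so its part in these counts was not tested.

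Within 1 Mb of a centromeric band there were 43 members (6.01%, 4.39 to 8.02%) and 14 shared peaks (1.62%, 0.887 to 2.70%), against 3.61% of the whole list. Without 19q11 there were 29 of 701 members (4.14%, 2.79 to 5.89%), and this interval missed that of the shared peaks only narrowly (2.79% against 2.70%). Overlapping pairs count as 2 peaks each here, and the share without 19q11 was not computed with pairs merged. Merged within 1 kb and with 19q11 kept, there were 37 of 680 members (5.44%, 3.86 to 7.42%). In the lower 50% of the list, with 19q11 kept, the shares of members (5.46%, 3.74 to 7.66%) and shared peaks (2.24%, 0.732 to 5.16%) had overlapping intervals. Within 5 Mb there were 87 members (12.2%, 9.86 to 14.8%) and 76 shared peaks (8.78%, 6.98 to 10.9%), against 10.3% of the whole 400 nM list, and the intervals overlapped. Without 19q11 the members' share within 5 Mb was 10.4% (8.25 to 12.9%). The whole-list shares given here keep the 19q11 peaks. The 400 nM-only peaks of compound 2 had larger shares, with 139 of 805 (17.3%, 14.7 to 20.1%) within 5 Mb and 56 (6.96%, 5.30 to 8.94%) inside one. These compound 2 peaks were themselves crowded, with 114 on chromosome 10, and their shares were not computed without crowded places.

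Within 5 Mb of a chromosome end there were 30 members (4.20%, 2.85 to 5.94%) and 52 shared peaks (6.00%, 4.52 to 7.80%), against 5.19% of the whole list, with overlapping intervals. Within 10 Mb there were 57 members (7.97%, 6.09 to 10.2%) and 118 shared peaks (13.6%, 11.4 to 16.1%), against 11.1% of the whole list, and the intervals of members and shared peaks did not overlap. In the lower 50% of the list the shares within 10 Mb were 7.75% (5.69 to 10.3%) and 12.6% (8.51 to 17.6%), with overlapping intervals. Undosed-only peaks had 9.44% (8.25 to 10.7%) within 10 Mb, nearer to the members.

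Giemsa staining divides chromosomes into dark bands, which tend to be AT-rich and gene-poor, and light or negative bands, which tend to be gene-rich. Giemsa-negative bands held 368 of 715 members (51.5%, 47.7 to 55.2%), 401 of 866 shared peaks (46.3%, 42.9 to 49.7%) and 48.6% of the whole 400 nM list. They make up 42.2% of the hg19 length. Members and shared peaks had overlapping intervals for these bands. For Giemsa-positive bands they did not, with 314 members (43.9%, 40.2 to 47.6%) and 462 shared peaks (53.3%, 49.96 to 56.7%), against 49.1% of the whole list, and in its lower 50% the shares were 44.2% (40.1 to 48.4%) and 56.5% (49.7 to 63.1%). Centromeric bands, which are neither, hold part of the members. In Giemsa-negative bands the undosed-only peaks, with 912 of 2192 (41.6%, 39.5 to 43.7%), and the 400 nM-only compound 2 peaks, with 316 of 805 (39.3%, 35.9 to 42.7%), were below the members by intervals that did not overlap. Chromosomes 16, 17, 19 and 22, which are gene-dense, held 102 members (14.3%, 11.8 to 17.05%), 102 shared peaks (11.8%, 9.71 to 14.1%) and 156 undosed-only peaks (7.12%, 6.08 to 8.27%), against 12.9% of the whole 400 nM list. Without 19q11 the members' count was 88 of 701 (12.6%, 10.2 to 15.2%), while the whole-list share keeps that group.

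**Figure D4:**
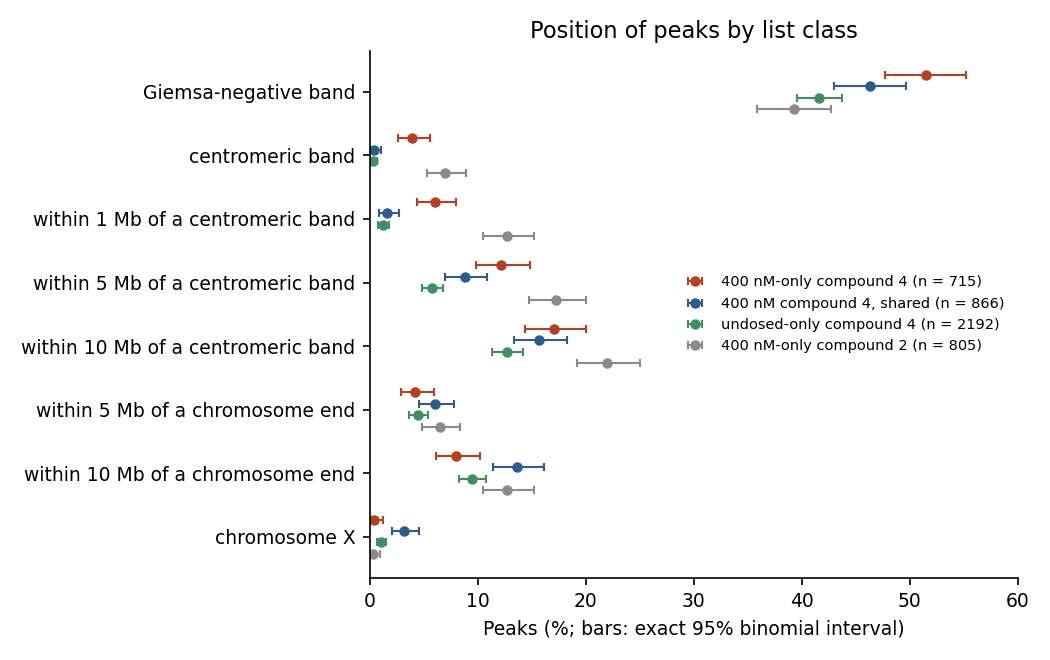
Share of peaks (x axis, percent) at each kind of position (y axis) for 400 nM-only, shared and undosed-only compound 4 peaks and 400 nM-only compound 2 peaks; points are shares and bars exact 95% binomial intervals. Over whole classes, intervals of 400 nM-only and shared compound 4 peaks do not overlap inside centromeric bands or within 1 Mb of them. Nor do they within 10 Mb of chromosome ends or on chromosome X. In the lower 50% of the list, of these they stay apart on X alone, and narrowly (1.54% against 1.56%). The shared class there has 223 peaks in place of 866, so its intervals are wider.

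Chromosome X was nearly empty of members. It held 3 of 715 (0.420%, 0.0866 to 1.22%), 27 of 866 shared peaks (3.12%, 2.06 to 4.50%) and 1.90% of the whole 400 nM list, and it makes up 5.02% of the hg19 length. That share of length does not allow for the number of X copies per cell. The members were an overlapping pair at Xq24 (117365695 to 117366298 and 117365983 to 117366586; ranks 1242 and 1328) and the peak at Xq11.1 (62223165 to 62223768; rank 1511), and so lay at 2 places. In the lower 50% of the list X held 3 of 568 members (0.528%, 0.109 to 1.54%) and 8 of 223 shared peaks (3.59%, 1.56 to 6.95%). The intervals missed each other there only narrowly (1.54% against 1.56%) and rest on few peaks, with the Xq24 pair counted as 2. Undosed-only peaks had 22 of 2192 on X (1.004%, 0.630 to 1.52%), and 400 nM-only compound 2 peaks 2 of 805 (0.248%, 0.0301 to 0.895%). Chromosome Y had 0 of 715 members, where the limit of 3 counts is a share of 0.420%, and 10 shared peaks.

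Chromosome 19 was the other extreme. It held 37 members (5.17%, 3.67 to 7.06%) and 12 shared peaks (1.39%, 0.718 to 2.41%), against 3.10% of the whole list and 1.91% of the hg19 length. Members thus made up 75.5% (61.1 to 86.7%) of its 49 peaks at 400 nM. Without 19q11 it held 23 of 701 members (3.28%, 2.09 to 4.88%), whose interval overlapped that of the shared peaks. Its density was 0.626 members per Mb, or 0.389 without 19q11, where the median of the autosomes was 0.257.

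Chromosome 14 had 36 members and 19 shared peaks, so members made up 65.5% (51.4 to 77.8%) of its peaks at 400 nM. They were spread over 18 bands, with 5 at 14q24.3 and 4 at 14q12, and 3 of the loci were pairs. Chromosome 20 was the reverse, with 11 members and 32 shared peaks (25.6%, 13.5 to 41.2%), and chromosome 16 had 25 members and 47 shared peaks (34.7%, 23.9 to 46.9%). On the other autosomes members were 38.9 to 51.0% of the 400 nM peaks. Chromosomes 14, 16, 19 and 20 were picked out after their values were seen, among 24 chromosomes.

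**Figure D5:**
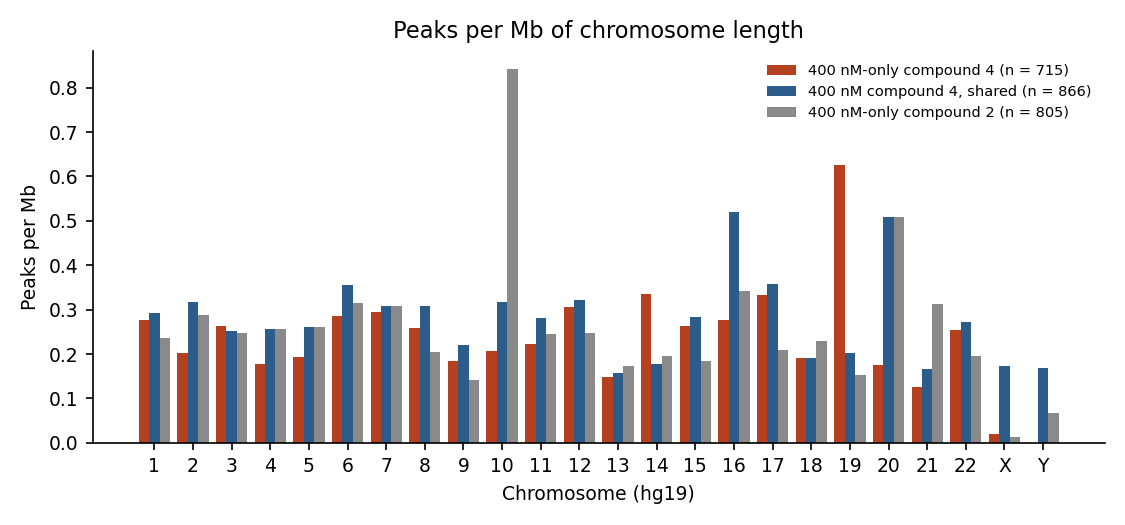
Peaks per Mb (y axis) on each hg19 chromosome (x axis) for 400 nM-only and shared compound 4 peaks and 400 nM-only compound 2 peaks. Members reach 0.626 per Mb on chromosome 19 and 0.0193 per Mb on chromosome X; the tall compound 2 bar is chromosome 10.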

How the data were processed

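The values are 4 peak lists without a header, each with chromosome, start, end and a deposited score, on hg19. HOMER, Bowtie 1.0 and CASAVA 1.8.2 were used, per the submitters' processing notes. The calling threshold, the use of the input, the pooling of libraries and the handling of repeated reads are not stated in the labels used here, and each can change which peaks a list holds. Groups came from sample titles, and the undosed lists were tied to no group.

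Starts are printed counted from 1. Overlap (1 bp or more) was counted in Python 3.11.15 (pandas 2.3.3, scipy 1.17.1), gave the same peaks as bedtools 2.31.1, and was tested on simulated lists. Loci are chains of peaks within 1 kb. Bands came from circlize 0.4.16 and lengths from GenomeInfoDb 1.38.1. Distances to centromeres run to the edge of the centromeric bands.

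Regions named are the 10 highest-scoring members, all of 19q11, the 3 peaks nearest the rule on each side, the 5 loci with the most members and the 5 bands with the most members per Mb (ties by rank), and members on compound 2 peaks; others were chosen after their values were seen. The members and the lists of features were chosen with earlier results of these data known. No test was run, because each group has 1 list. Alternatives concerned the overlap rule, merging, distances and the part of the list used.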

Additional observations from a re-analysis of the deposited data

How the results depend on the processing

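Of 26 alternative settings over 10 results, 20 stayed within 1.5 times the count or within the 95% interval of the share. The count of 715 peaks ran from 683 (overlapping peaks merged) to 814 (reciprocal overlap of 50%), except that the upper 50% of the 400 nM list held 147, since most members rank low. The share with another member nearby was 12.4% at 10 kb in place of 1 kb. Near centromeric bands it was 6.01% within 1 Mb and 17.1% within 10 Mb, and near chromosome ends 0.839% and 7.97%, which follows from the wider distances. The 19q11 group had 12 loci after merging within 1 kb. Settings by rank, without 19q11 and for chromosome X were added after seeing the data. The planned settings on sequence were not run. No paired analysis was possible because the lists hold no values per library. Depth per library is unknown.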
